A study of Homo sapiens with 9 samples.

Results

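The guides described here are the sgRNAs aimed at genes named PSMC or PSMD followed by a digit, which encode the regulatory particle of the proteasome and helpers of its assembly. They were chosen by gene name, with earlier results of these data known. They numbered 180 of the 11170 guides counted, or 10 guides for each of 18 of the 1117 target genes. All 18 names are current symbols in a RefSeq gene table. The screen was made in U251, an established human glioma cell line, in cells that carried the guide library stably. The high-dose group is labelled 1500 µM temozolomide and the low-dose group 200 µM temozolomide, both exposed for 72 hours, and the untreated group is labelled 0 µM. Each group has 3 libraries, numbered 1 to 3. Temozolomide is a DNA-alkylating drug used against glioma. The doses are in µM in the sample titles but in nM in the treatment protocol, so µM serves here as the name of a group and settles no concentration. The labels name neither the nuclease, the vector nor the time between infection and DNA isolation, and they do not say whether the libraries of a group came from separate cultures. A p-value here thus reflects how far the libraries of a group scatter, and that scatter may be technical. In the main fit that scatter also holds differences between library numbers that recur at other doses, so its p-values run high.

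The 26S proteasome is the main protease of the cytosol and nucleus. A barrel, the 20S core, holds the proteolytic sites, and a cap, the 19S regulatory particle, binds ubiquitin-tagged proteins, unfolds them and feeds them into the barrel. The base of the cap contains a ring of ATPases, PSMC1 to PSMC6, which does the unfolding, together with the large scaffold subunits PSMD1 and PSMD2 and the ubiquitin receptor PSMD4. The lid, which includes PSMD3, PSMD6, PSMD8, PSMD11, PSMD12 and PSMD13, is built largely of related scaffold proteins and holds the enzyme that removes ubiquitin from substrates. PSMD5, PSMD9 and PSMD10 carry PSMD names but are assembly chaperones: each binds particular ATPase subunits while the base is built, and none stays in the finished particle. Proteasome function is needed for growth of most cultured human cells, and in a pooled screen guides that slow growth become scarce among the sequenced guides. The lid subunits PSMD7 and PSMD14, and the regulatory particle genes ADRM1, SEM1 and UCHL5, were not among the target genes analysed here.

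Total counts lay between 1852340 and 2790563 per library, and a guide at 0 may lie anywhere below 3 counts, or 1.08 to 1.62 counts per 1000000 counts of the library (CPM). The 180 guides took 0.848% to 0.906% of the counts of the untreated libraries, 0.842% to 0.911% at 200 µM and 0.736% to 0.955% at 1500 µM. The exact 95% binomial interval of the lowest share, in 1500 µM library 2, was 0.725% to 0.746%, and intervals and floors cover counting error only. That library is also the one in which the single guide UBE2A.7, against a ubiquitin-conjugating enzyme, took 18.6% of the counts. It took 6.07% and 4.97% in 1500 µM libraries 1 and 3, 0.155% to 1.13% at 0 µM and 0.289% to 2.60% at 200 µM. These counts are in the totals that the members' shares are taken of, and the shares without UBE2A.7 are not given here. No plasmid pool and no library from before the treatment was analysed here, so the level of a guide at 0 µM and its share of the starting pool cannot be told apart.

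Guides against the ATPases, the other base subunits and the lid were scarcer than the library's median guide in all 9 libraries, while guides against the 3 assembly chaperones were more abundant than it. The median member guide had 20.5 to 23.5 counts in the untreated libraries, 20 to 31 counts at 200 µM and 29.5 to 46 counts at 1500 µM, against 66 to 89, 86 to 122 and 95 to 121 counts for the median of all guides in the same libraries. On the scale log2(CPM + 1), the median of the members minus the median of all guides was -1.77 ± 0.31 at 0 µM, -1.89 ± 0.32 at 200 µM and -1.45 ± 0.14 at 1500 µM (SD, n = 3 libraries each). The difference was below 0 in all 9 libraries, and the ranges of the 3 doses overlapped, with -1.61 to -1.34 at 1500 µM, against -2.001 to -1.42 at 0 µM.

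The 3 assembly chaperones stood on the other side of the library median. Their 30 guides had a median of 132.5 to 180.5 counts in the untreated libraries, and the same difference from all guides was 0.93 ± 0.11 at 0 µM, 0.91 ± 0.25 at 200 µM and 0.78 ± 0.05 at 1500 µM. The 60 guides against the ATPase ring had a median of 7 to 11 counts in the untreated libraries, and a difference of -2.88 ± 0.07 at 0 µM, -2.61 ± 0.40 at 200 µM and -2.28 ± 0.46 at 1500 µM. The 30 guides against PSMD1, PSMD2 and PSMD4 lay at -3.19 ± 1.23, -3.30 ± 0.58 and -2.75 ± 0.10 at 0, 200 and 1500 µM. Their lowest value, -4.60, was in untreated library 2, where their median was 1.5 counts, below the floor of 3 counts. In untreated libraries 1 and 3 they lay at -2.67 and -2.32, above the ATPase guides at -2.94 and -2.81. The 60 lid guides had the means nearest to the library median among the 3 structural roles, at -1.74 ± 0.59, -1.92 ± 0.59 and -1.70 ± 0.64. For comparison, the 140 guides against the 20S core genes PSMA1 to PSMA7 and PSMB1 to PSMB7 differed from the same median by -5.07 ± 0.11, -5.26 ± 0.55 and -4.82 ± 0.60. Their own median guide had 0 to 2.5 counts, below the floor of 3 counts. Where it had 0, the difference is minus the median of all guides, so these values do not measure the depth of the core guides. These differences describe guides of 1 library pool and were not tested.

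Presence also differed by role. Of the 180 member guides, 9 (5%) had no count in any library, against 148 of all 11170 (1.32%) and 16 of the 140 20S core guides (11.4%). The 9 were PSMC2.5, PSMC6.8, PSMC6.9, PSMD2.7, PSMD2.8, PSMD4.9, PSMD6.1, PSMD12.1 and PSMD12.10, where the number after the point is the guide's own number in the table. None of the 9 was aimed at an assembly chaperone. Counts in all 9 libraries were found for 74 member guides (41.1%), against 67.6% of all guides and 16.4% of the 20S core guides. By role these were 24 of 30 chaperone guides, 21 of 60 lid guides, 20 of 60 ATPase guides and 9 of 30 guides against the other base subunits. In a single library, 41 to 60 of the 180 members were at 0, or 22.8% to 33.3%, against 10.0% to 15.2% of all guides. The number at 0 was 54, 49 and 45 in the untreated libraries, 56, 52 and 60 in the 200 µM libraries and 49, 50 and 41 in the 1500 µM libraries, so 1500 µM and 0 µM overlapped while each 1500 µM library had fewer members at 0 than any 200 µM library. Over all guides, 1540, 1282 and 1188 were at 0 in 1500 µM libraries 1, 2 and 3, against 1696, 1415 and 1559 at 200 µM, which was also fewer in each number. The 1500 µM libraries held 2111335 to 2790563 counts and the 200 µM libraries 1979391 to 2462866, and the part of this depth in the numbers at 0 was not tested.

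Summed over its 10 guides, each gene has a level in normalised CPM, that is, CPM after scaling by trimmed-mean (TMM) factors computed on the sums. In the untreated libraries 14 of the 18 genes lay in the lowest 25% of the 1117 genes, whose limit was 609 CPM before the TMM scaling. The other 4 were the chaperones PSMD9, PSMD5 and PSMD10, at percentiles 93.5, 82.7 and 75.2, and the lid gene PSMD8, at percentile 65.6. PSMD9, which binds PSMC3 and PSMC6 during assembly, summed to 2135, 956 and 1488 normalised CPM in untreated libraries 1, 2 and 3. PSMD5 summed to 916, 1782 and 982. PSMD10, also called gankyrin, summed to 838, 1643 and 885. PSMD8 stood apart from the rest of the lid, with 994, 481 and 1528. The highest library was 1 for PSMD9, 2 for PSMD5 and PSMD10, and 3 for PSMD8.

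Among the ATPases, PSMC6 was the lowest member of all, at percentile 2.15, with 81.0, 83.1 and 95 normalised CPM in the untreated libraries. PSMC1 and PSMC4 followed at percentiles 7.61 and 8.50, then PSMC3, PSMC2 and PSMC5 at 12.1, 13.4 and 15.04. The place of PSMC5 rested on 1 library number: it summed to 947 normalised CPM in untreated library 1, against 180 and 174 in libraries 2 and 3. Of the other base subunits, the scaffold PSMD1 (percentile 5.10), the scaffold PSMD2 (10.9), which docks the shuttle factors that deliver ubiquitin-tagged proteins, and the ubiquitin receptor PSMD4 (5.73) averaged 194 ± 115, 343 ± 119 and 207 ± 108 normalised CPM at 0 µM (SD, n = 3). The lid genes other than PSMD8 averaged from 152 ± 92 normalised CPM for PSMD12, at percentile 3.94, to 399 ± 177 for PSMD6, at percentile 14.1, with PSMD3, PSMD13 and PSMD11 at 212 ± 22, 214 ± 76 and 230 ± 26. In the order of their means, neighbours among the 18 differed by less than the larger of their SDs, except PSMC5 (434 ± 445) and the next one up, PSMD8 (1001 ± 524).

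A few guides carried most of what was counted for a gene. Guide PSMC1.2 held 69.1% of the mean CPM of PSMC1, PSMD4.4 held 63.7% of PSMD4, PSMC4.9 held 58.5% of PSMC4 and PSMD2.10 held 48.5% of PSMD2. PSMC1.2 had 194, 361 and 522 counts in untreated libraries 1, 2 and 3, 71, 457 and 563 counts at 200 µM, and 155, 485 and 392 counts at 1500 µM. The second guide of PSMC1, PSMC1.8, held 10.8%. At the other end of the members, the largest guide of PSMC5, PSMC5.4, held 19.1% of that gene, and the largest guide of PSMD9, PSMD9.5, held 21.4%.

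The 10 member guides with the highest mean CPM included 3 against PSMD9, 2 each against PSMD5, PSMD10 and PSMD8, and PSMD2.10 as the only one against a base subunit. PSMD5.4 was the most abundant, at rank 65 of all guides, with 115, 2508 and 1143 counts in untreated libraries 1, 2 and 3, 159, 1515 and 1122 counts at 200 µM and 354, 1512 and 1085 counts at 1500 µM. It was low in library 1 and high in library 2 at every dose. PSMD9.5, at rank 329, was high in library 1, with 1044, 1367 and 1660 counts at 0, 200 and 1500 µM, and had 203 to 469 counts in the other 6 libraries. PSMD10.4, at rank 407, was high in library 2, with 1559, 1438 and 1797 counts, and had 98 to 276 counts in the others. PSMD8.2, at rank 454, had 234 to 1103 counts over the 9 libraries, with library 2 the lowest of the 3 numbers at each dose. PSMD8.3, against the same gene, had 1324, 1047 and 864 counts in library 3 of the 3 doses and 21 to 214 counts elsewhere.

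The level of a member guide went with the replicate number more closely than with the dose. Over the 142 member guides with at least 10 counts in 3 or more libraries, log2(CPM + 1) correlated at 0.76 to 0.85 between libraries of 1 number and different doses, and at 0.34 to 0.55 between libraries of 1 dose and different numbers. These correlations are across guides of 1 pool, which are not independent replicates. One number held over 90% of the normalised CPM of 28 of the 171 member guides with any count (16.4%), against 7.99% of all guides with a count, 29.0% of the 20S core guides and 1 of the 30 chaperone guides. PSMC4, PSMC5 and PSMC6 each had 3 guides over 90%. Guide PSMC5.4 had 507, 471 and 594 counts in library 1 of the 0, 200 and 1500 µM groups and 0 to 7 counts in the other 6 libraries. Guides PSMC5.8 and PSMC5.10 had 250 to 397 counts in the same 3 libraries and 0 to 31 counts elsewhere. PSMC5.9 had 221 to 326 counts there, against 0 to 48 elsewhere, and at 89.2% in library 1 fell just short of 90%. The sum of PSMC5, which includes them, was 947, 781 and 755 normalised CPM in library 1 of the 0, 200 and 1500 µM groups and 174 to 322 in libraries 2 and 3. PSMD8.5 showed the same pattern in library 1, with 127, 434 and 505 counts against 0 to 32 elsewhere. Abundance differed between these sets too: the median of the guides' mean CPM was 3.01 for the 20S core, 22.2 for the members, 59.2 for all guides and 102 for the chaperones. By role the share was 22.8% for the ATPase guides, at a median of 8.80 CPM, and 18.5% for the guides against the other base subunits, at 6.76 CPM. The difference between these roles, at 13 of 57 guides against 5 of 27, was not tested. The part of abundance in the share was not tested either. Among the 142 member guides that passed the count minimum the share was 8.45%, against 5.36% of all such guides.

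The comparison of 1500 µM with 0 µM asks which guides gained or lost ground under the high dose. No guide or gene of the regulatory particle passed the test. The highest log2 fold changes, summed over guides, were those of the scaffold PSMD1 (0.63 ± 0.55), the lid subunit PSMD11 (0.62 ± 0.43) and the ATPase PSMC6 (0.58 ± 0.53), and the lowest were those of the ubiquitin receptor PSMD4 (-0.24 ± 0.54) and the chaperone PSMD9 (-0.20 ± 0.43). The 142 member guides that passed the count minimum were read from a fit over all 10337 guides that passed it, and the other 38 members fell below it. By edgeR's quasi-likelihood test with Benjamini-Hochberg adjustment, 0 of the 142 passed an adjusted p of 0.05, and the share called over all guides was 0%. Without adjustment, 0 of the 142 had p under 0.05, against 21 of 10337 over all guides. With the replicate number as a block, 3 of the 142 had p under 0.05 and 270 of 10337 did, and still 0 of the 142 were called. DESeq2 gave 1 member with p under 0.05, against 61 of all guides, and 0 called. DESeq2 with the block gave 6, against 483 of all guides, and 0 called, beside 6 called over all guides. The log2 fold change, 1500 µM over 0 µM, had a median of 0.10 over the members and -0.08 over all tested guides. It was above 0 for 79 of 142 members (55.6%), against 4533 of all 10337 guides (43.9%). It was above 0 for 33 of 48 lid guides, 13 of 21 guides against the other base subunits, 22 of 43 ATPase guides and 11 of 30 chaperone guides, with medians of 0.39, 0.43, 0.08 and -0.16. With the replicate block these medians were 0.27, 0.30, 0.36 and -0.018, with 31, 13, 27 and 15 guides above 0. The order of the roles other than the chaperones thus changed with the block. Over all guides the block put 5056 of 10337 above 0, with a median of -0.017. Without 1500 µM library 2 the members' median was -0.0085, against -0.097 over all guides.

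The guide with the lowest p among those higher at 1500 µM was PSMD2.4. It had 131, 89 and 72 counts at 1500 µM, against 23, 8 and 26 counts at 0 µM. It was higher in each number, as were 12.1% of all tested guides. The log2 fold change was 1.94 ± 0.97 (edgeR's approximate SE, adjusted p = 1.00). PSMC3.8 had 11, 0 and 22 counts at 1500 µM, against 0, 0 and 0 counts at 0 µM, at least 2.78-fold higher than the floor of 3 counts in each untreated library. It was at 0 in library 2 of both groups. PSMD13.1 had 160, 8 and 48 counts at 1500 µM, against 15, 4 and 9 counts at 0 µM, and was higher in each number, though library 2 of the high dose lay within the untreated range. The other 2 of the 5 with the lowest p, PSMC4.3 and PSMD3.1, had 0 to 63 counts at 1500 µM and 0 to 13 counts at 0 µM.

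In the other direction, PSMD9.7 had 491, 143 and 108 counts at 1500 µM, against 1168, 429 and 141 counts at 0 µM. It was lower in each of the 3 numbers, with a log2 fold change of -1.79 ± 1.04 (edgeR, adjusted p = 1.00), and the groups overlapped. PSMD10.6 had 148, 85 and 167 counts at 1500 µM, against 335, 116 and 217 counts at 0 µM, and was also lower in each number. PSMD8.10 had 508, 234 and 195 counts at 1500 µM, against 747, 256 and 291 counts at 0 µM. The other 2 of the 5 were PSMD3.5, which rested on 209 counts in untreated library 1, and PSMD5.5, which rested on 581 counts in untreated library 2.

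Summed per gene, 0 of 18 members passed the same test, where 0% of the 1117 genes did, and 0 of 18 had an unadjusted p under 0.05, against 3 of 1117. With the block, 0 of 18 were called, against 1 of 1117 genes, and 1 of 18, PSMD1, had an unadjusted p under 0.05, against 74 of 1117. DESeq2 called 0 of 18, beside 1 of all genes, and 0 of 18 had an unadjusted p under 0.05 there, against 4 of 1117. With the block it called 0 of 18, against 3 of 1117. Its unadjusted p was then under 0.05 for 1 of 18, against 74 of 1117. The sum was higher at 1500 µM for 12 of 18 members and for 500 of 1117 genes, with median log2 fold changes of 0.15 and -0.03. It was higher in all 3 numbers for 6 of 18 members, where the background was 13.9% of all genes, and lower in all 3 for 1 of 18, where it was 10.6%. The 6 were the ATPases PSMC2 and PSMC6, the scaffolds PSMD1 and PSMD2, and the lid subunits PSMD11 and PSMD12. The 1 lower was the chaperone PSMD9. TMM factors taken from single guides shift the median of all genes by -0.15 in place of -0.03. The counts were then 4 higher and 3 lower, against 71 higher and 336 lower of all 1117 genes. With library totals alone they were 3 higher and 1 lower, against 67 higher and 263 lower of all genes.

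PSMD1 summed to 422, 205 and 276 normalised CPM at 1500 µM, against 309, 79.7 and 192 at 0 µM. All 3 numbers were higher at the high dose, but the groups overlapped, since library 1 was high in both. The log2 fold change was 0.63 ± 0.55 by edgeR (adjusted p = 1.00), and 0.77 ± 0.30 with the replicate block (adjusted p = 0.66). Its 2 main guides were PSMD1.9, with 183, 280 and 287 counts at 1500 µM against 103, 131 and 162 at 0 µM, and PSMD1.1, with 588, 60 and 126 against 232, 35 and 21. Both were higher in each number. Of the 7 tested guides of PSMD1, only 4 had an edgeR log2 fold change above 0, and their median over the 7 was 0.05. Without PSMD1.9 the summed log2 fold change was 0.53 ± 0.82 by edgeR without the block.

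PSMD11, a lid subunit that links the lid to the base, summed to 534, 220 and 307 normalised CPM at 1500 µM, against 212, 218 and 259 at 0 µM. The log2 fold change of 0.62 ± 0.43 (edgeR, adjusted p = 1.00) rested mainly on number 1, where the log2 ratio was 1.33, against 0.01 and 0.24 in numbers 2 and 3. In number 1 PSMD11.1 had 710 counts at 1500 µM against 187 at 0 µM. PSMC6 summed to 101, 101 and 187 normalised CPM at 1500 µM, against 81.0, 83.1 and 95 at 0 µM. It was the only 1 of the 18 members whose groups did not overlap in this comparison, where 2.33% of all genes did not, in either direction. By library totals alone the groups of PSMC6 did overlap, since its untreated library 3 lay above 1500 µM libraries 1 and 2. Its log2 fold change was 0.58 ± 0.53 (edgeR, adjusted p = 1.00). The difference in PSMC6 was not carried by the same guide in each number: PSMC6.2 had 144, 21 and 204 counts at 1500 µM against 41, 69 and 115 at 0 µM, and was lower in number 2, while PSMC6.6 had 31, 112 and 58 against 8, 47 and 5.

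The remaining members had smaller differences. PSMD2 had a log2 fold change of 0.36 ± 0.41, with 480, 547 and 290 normalised CPM at 1500 µM against 299, 478 and 253 at 0 µM. PSMC2, PSMC4 and PSMD6 had log2 fold changes of 0.30 ± 0.45, 0.29 ± 0.39 and 0.29 ± 0.46, and PSMD12 of 0.24 ± 0.67. PSMD13, PSMD3 and PSMC3 had 0.15 ± 0.43, 0.14 ± 0.45 and 0.05 ± 0.55. PSMC5, PSMD8 and PSMC1 had -0.03 ± 0.76, -0.05 ± 0.55 and -0.10 ± 0.50. PSMD4 had a log2 fold change of -0.24 ± 0.54, with 97.8, 249 and 179 normalised CPM at 1500 µM against 137, 331 and 154 at 0 µM. Without its most abundant guide, PSMD4.4, the log2 fold change of PSMD4 was 0.09 ± 0.54. For PSMC4 it was -0.16 ± 0.62 without PSMC4.9. PSMC4.9 itself had 993, 141 and 441 counts at 1500 µM, against 418, 79 and 310 at 0 µM, and was higher in each number. Among the chaperones PSMD9 had 1929, 892 and 1178 normalised CPM at 1500 µM against 2135, 956 and 1488 at 0 µM, a log2 fold change of -0.20 ± 0.43, and PSMD5 and PSMD10 had -0.06 ± 0.35 and 0.06 ± 0.41. None of these passed the test.

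Other proteasome genes gave no call either. Of the 14 genes of the 20S core, 8 had a higher sum at 1500 µM, against 500 of 1117 genes. The core's median log2 fold change was 0.25, between 0.95 ± 1.13 for PSMA5 and -0.50 ± 0.46 for PSMA4. The 5 immunoproteasome and tissue-specific genes, PSMA8, PSMB8, PSMB9, PSMB10 and PSMB11, had a median of 0.00, as did the 5 genes for alternative caps and their inhibitor, PSME1 to PSME4 and PSMF1. The 6 measured genes for proteasome-bound enzymes and shuttle factors had a median of 0.04, the highest being VCP, an unfolding ATPase, at 0.36 ± 0.83. By edgeR 0 genes of these 4 lists were called and 0 had an unadjusted p under 0.05. With the block 0 were called, against 1 of 1117 genes, and 1, of the 20S core, had p under 0.05, against 74 of 1117.

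The comparison of 200 µM with 0 µM asks the same for the low dose. No guide or gene of the regulatory particle passed the test here either. Summed over guides, the highest log2 fold changes were those of PSMD11 (0.39 ± 0.35) and PSMD2 (0.29 ± 0.37), and the lowest were those of the lid subunit PSMD13 (-0.35 ± 0.46) and the ATPase PSMC3 (-0.27 ± 0.63). By edgeR 0 of 142 member guides were called, where 0% of all guides were, and 2 of 142 had an unadjusted p under 0.05, against 14 of 10337. With p under 0.05 the block gave 3 of 142 members, against 231 of 10337 guides in all, and DESeq2 gave 3, against 40. DESeq2 with the block gave 6, against 423, and called 6 guides in all. None of these fits called a member. The median log2 fold change, 200 µM over 0 µM, was -0.16 over the members and -0.09 over all tested guides. Above 0 were 61 of 142 members (43.0%), near the 4389 of all 10337 guides (42.5%). Chaperone guides had a median of -0.30, with 6 of 30 above 0, ATPase guides -0.17 with 19 of 43, other base guides 0.01 with 11 of 21 and lid guides 0.07 with 25 of 48. With the block the medians were -0.29, -0.034, -0.029 and -0.068, with 9, 20, 9 and 23 guides above 0, so the signs of the other base and lid medians turned. Over all guides the block put 4590 of 10337 above 0, with a median of -0.078. The sign of the members' median rested on single libraries: it was 0.15 without untreated library 3, 0.01 without untreated library 1 and 0.03 without 200 µM library 3. The medians over all guides in these fits were -0.030, -0.083 and -0.031.

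Both member guides with p under 0.05 belonged to the ATPase ring and were at 0 throughout 1 of the groups. PSMC3.8 had 51, 12 and 25 counts at 200 µM, against 0, 0 and 0 counts at 0 µM, at least 7.91-fold higher (edgeR, adjusted p = 1.00). PSMC2.9 had 0, 0 and 0 counts at 200 µM, against 122, 10 and 0 counts at 0 µM, at least 20.1-fold lower (edgeR, adjusted p = 1.00). The untreated value of PSMC2.9 rested on library 1. Of the other 4 guides with the lowest p on the lower side, PSMD13.3 had 26, 11 and 0 counts at 200 µM, against 351, 37 and 31 counts at 0 µM. It was lower in each number, as were 13.8% of all tested guides. PSMC2.7 had 201, 95 and 130 counts at 200 µM, against 143, 293 and 252 counts at 0 µM, and was higher in raw counts in number 1. PSMD12.8 and PSMC1.10 had 0 counts in each 200 µM library and 0 to 60 in the untreated ones. On the higher side, PSMD4.1 had 26, 42 and 15 counts at 200 µM, against 0, 12 and 0 counts at 0 µM. PSMD5.2 had 444, 153 and 279 counts at 200 µM, against 129, 109 and 173 counts at 0 µM. Both were higher in each number. The other 2 on that side, PSMD3.1 and PSMC2.3, had 0 to 87 counts at 200 µM and 0 to 13 counts at 0 µM.

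Summed per gene, 0 of 18 members were called, where 0% of all genes were, and 0 of 18 had an unadjusted p under 0.05 by edgeR, as did 0 of 1117. With the block 0 of 18 had p under 0.05, against 60 of 1117, and 0 of all genes were called. DESeq2, with or without the block, also gave 0 of 18 called and 0 with p under 0.05. Over all genes it called 0 without the block and 1 with it. The sum was higher at 200 µM for 9 of 18 members and for 490 of 1117 genes, with median log2 fold changes of -0.02 and -0.03. It was higher in all 3 numbers for 3 of 18, PSMC2, PSMD2 and PSMD11, where the background was 16.8%, and lower in all 3 for 1 of 18, PSMC3, where it was 12.6%. TMM factors from single guides set the median of all genes to -0.13. These counts were then 1 higher and 2 lower, against 69 higher and 345 lower of all 1117 genes. With library totals alone they were 4 higher and 1 lower, against 222 higher and 97 lower of all genes. PSMD11 had 297, 291 and 326 normalised CPM at 200 µM, against 212, 218 and 259 at 0 µM. It was the 1 member of 18 whose groups did not overlap, where 1.97% of all genes did not, and its log2 fold change was 0.39 ± 0.35 (edgeR, adjusted p = 1.00). PSMD13 had 151, 213 and 145 normalised CPM at 200 µM, against 272, 241 and 128 at 0 µM. In number 1 its guide PSMD13.3 had 26 counts at 200 µM against 351 at 0 µM. PSMC3 had 101, 305 and 476 normalised CPM at 200 µM against 163, 377 and 512 at 0 µM, and was lower in each number. Of the others, PSMC2 had a log2 fold change of 0.22 ± 0.47, and the remaining 13 lay between -0.18 ± 0.40 for PSMD9 and 0.18 ± 0.53 for PSMC6.

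The 2 comparisons above share the untreated libraries. PSMD11, PSMD2 and PSMC2 had log2 fold changes of 0.62 ± 0.43, 0.36 ± 0.41 and 0.30 ± 0.45 at 1500 µM over 0 µM, and 0.39 ± 0.35, 0.29 ± 0.37 and 0.22 ± 0.47 at 200 µM over 0 µM.

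The comparison of 1500 µM with 200 µM sets the doses against each other. By edgeR no guide or gene of the regulatory particle passed the test, and 1 guide against the ATPase PSMC3 passed in 1 alternative fit. Summed over guides, the highest log2 fold changes were those of the lid subunit PSMD13 (0.49 ± 0.39), the scaffold PSMD1 (0.47 ± 0.49) and the lid subunit PSMD6 (0.45 ± 0.46), and the lowest was that of PSMD4 (-0.15 ± 0.65). By edgeR 0 of 142 member guides were called, where 0% of all guides were, and 1 of 142 had an unadjusted p under 0.05, against 21 of 10337. That guide was PSMC2.9, with 116, 8 and 20 counts at 1500 µM, against 0, 0 and 0 counts at 200 µM, at least 13.7-fold higher (edgeR, adjusted p = 1.00). DESeq2 gave 1 member with p under 0.05, against 33 of all guides, and edgeR with the block gave 2, against 202, both with 0 called. The median log2 fold change, 1500 µM over 200 µM, was 0.14 over the members and 0.01 over all tested guides. Above 0 were 88 of 142 members (62.0%), against 5252 of all 10337 guides (50.8%). By role, 29 of 43 ATPase guides, 13 of 21 guides against the other base subunits, 30 of 48 lid guides and 16 of 30 chaperone guides were above 0.

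DESeq2 with the replicate block was the 1 setting in which a member guide was called. It gave an adjusted p to 4926 guides, of which it called 0.873%, and to 45 of the members, of which it called 1, PSMC3.9. Without adjustment, 17 of 142 members had p under 0.05 in that fit, against 1052 of 10337 over all guides. PSMC3.9 had 262, 70 and 519 counts at 1500 µM, against 53, 16 and 376 counts at 200 µM, and was higher in each number. Its log2 fold change was 1.51 ± 0.42 in that fit (adjusted p = 0.049), 1.55 ± 0.45 by edgeR with the block (adjusted p = 1.00) and 1.06 ± 1.16 by edgeR without it (adjusted p = 1.00). At 0 µM the same guide had 38, 5 and 441 counts.

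Of the other guides with the lowest edgeR p on the higher side, PSMD13.3 had 106, 102 and 85 counts at 1500 µM, against 26, 11 and 0 counts at 200 µM. It was higher in each number, as were 13.3% of all tested guides. PSMD9.4 had 31, 53 and 137 counts at 1500 µM, against 0, 13 and 37 counts at 200 µM, and was higher in each number. The other 2, PSMD12.8 and PSMC1.10, had 0 to 43 counts at 1500 µM and 0 counts in each 200 µM library. On the lower side, PSMC5.5 had 60, 39 and 65 counts at 1500 µM, against 97, 74 and 167 counts at 200 µM. PSMD9.10 had 214, 207 and 155 counts at 1500 µM, against 246, 307 and 286 counts at 200 µM. Both were lower in each number, as were 11.5% of all tested guides. PSMD4.1 had 0, 15 and 9 counts at 1500 µM, against 26, 42 and 15 counts at 200 µM, and PSMC1.7 and PSMD9.7 completed the 5. All these guides had an adjusted p of 1.00 by edgeR.

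Summed per gene, 0 of 18 members were called, where 0% of all genes were, and 0 of 18 had an unadjusted p under 0.05, against 1 of 1117. With the block 2 of 18 did, PSMD6 and PSMD1, against 74 of 1117, and 0 of 18 were called, as were 0 of all genes. DESeq2 called 0 of 18, beside 1 of all genes. With the block it gave 5 of the 18 an adjusted p and called 0 of them, beside 24 of the 943 genes that had one. In that fit 4 of 18 had an unadjusted p under 0.05, against 138 of 1117. The sum was higher at 1500 µM than at 200 µM for 13 of 18 members and for 525 of 1117 genes. Its median log2 fold change was 0.10 over the members and -0.01 over all genes. It was higher in all 3 numbers for 3 of 18, PSMC3, PSMD1 and PSMD6, where the background was 12.7%, and lower in all 3 for 1 of 18, PSMD8, where it was 15.2%. The groups overlapped for all 18, where 0.895% of all genes did not overlap. Library totals alone set the median of all genes to -0.15. The counts were then 3 higher and 2 lower, against 33 higher and 366 lower of all 1117 genes. PSMD13 had 237, 203 and 272 normalised CPM at 1500 µM, against 151, 213 and 145 at 200 µM, and was slightly lower in number 2. PSMD1 had 422, 205 and 276 at 1500 µM, against 299, 109 and 247 at 200 µM, and was higher in each number. PSMD6 had 669, 333 and 470 normalised CPM at 1500 µM, against 531, 187 and 367 at 200 µM. Its log2 fold change was 0.45 ± 0.46 (edgeR, adjusted p = 1.00), and 0.51 ± 0.19 with the block (adjusted p = 0.63). Of its 9 tested guides, 8 had a log2 fold change above 0, as did 50.8% of all tested guides. PSMD8 had 1047, 395 and 1459 normalised CPM at 1500 µM, against 1116, 533 and 1494 at 200 µM, a log2 fold change of -0.11 ± 0.52. The remaining 13 genes lay between -0.04 ± 0.44 for PSMD3 and 0.40 ± 0.50 for PSMC6.

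The error of a subunit's log2 fold change differed between members. In the comparisons of 1500 with 0 µM, 200 with 0 µM and 1500 with 200 µM, PSMC5, whose 4 guides above were found mainly in library 1, had SEs of 0.76, 0.78 and 0.66 for log2 fold changes of -0.03, -0.12 and 0.07. PSMD5, summed over guides found in nearly every library, had SEs of 0.35, 0.34 and 0.26 for -0.06, -0.10 and 0.03. These SEs are from the fit without the block. With the block they were 0.24, 0.20 and 0.19 for PSMC5 and 0.17, 0.16 and 0.10 for PSMD5. Those of PSMC5 were then below those of PSMD1, at 0.30, 0.25 and 0.24. All 18 summed log2 fold changes were smaller than 2 SEs in the fit without the block in each comparison. With the block PSMD1 was larger than 2 SEs at 1500 over 0 µM and at 1500 over 200 µM, as was PSMD6 at 1500 over 200 µM, and none of these passed the adjusted threshold.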

How the data were processed

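Raw counts of sequenced guides, deposited by the authors as 1 table over the 9 libraries, were used without change. Per the submitters' processing notes, cutadapt 1.18 and MAGeCK 0.5.8 were used, and their settings are not known here. The members and comparison lists were chosen with earlier results of these data known. Named guides are the 5 with the lowest edgeR p per direction and comparison, the largest guide of a gene and the 10 most abundant members; PSMC3.9 and the guides of PSMC1, PSMC5, PSMD1, PSMD6, PSMD8, PSMD11 and PSMC6 beyond these were chosen after their values were seen.

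The count minimum for a test was 10 counts in 3 or more of the 9 libraries. The quasi-likelihood test of edgeR 4.0.16 (TMM, robust) was run on guides and again on sums per gene, in R 4.3.3, on the 6 libraries of each pair of doses. P-values were adjusted by Benjamini-Hochberg over all guides or genes at 0.05. The printed SE divides the size of the log2 fold change by the root of the F statistic and is approximate. DESeq2 1.42.0 was an alternative. The edgeR fit without the replicate block was tested on simulated data, and no result of that test is given here.

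Replicate numbers paired the samples: after subtraction of each dose's mean, libraries of the same number and different dose correlated at 0.66 to 0.78 over all guides in all 9 pairs, a pairing that comes from the data and not from the labels.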

Additional observations from a re-analysis of the deposited data

How the results depend on the processing

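Calls of 0 member guides and 0 summed member genes held under every alternative run, among them edgeR and DESeq2 with the replicate block, no count filter, at least 50 counts, RLE size factors, all 9 libraries in the fit, UBE2A.7 taken out and each library left out, except that DESeq2 with the replicate block called 1 member guide at 1500 over 200 µM. Sums without the most abundant guide of each gene, chosen after seeing the data, also gave 0. The median log2 fold change over the members moved more, and the cause was not tested. At 1500 over 0 µM it was 0.23 with the replicate block and -0.014 over guides with at least 50 counts. With 1 library left out it lay between -0.0085 (without 1500 µM library 2) and 0.24 (without untreated library 3). The median over all guides moved too, to -0.017, -0.085, -0.097 and -0.050 in these fits, in that order. At 200 over 0 µM the members' median was -0.10 with the replicate block, -0.13 by DESeq2 and -0.070 by DESeq2 with the block. It was -0.16 with no filter, -0.093 at 50 counts, -0.13 with RLE factors and -0.12 in the fit of all 9 libraries. It ran from -0.23 (without 200 µM library 1) to 0.15 (without untreated library 3). Over all guides these fits gave, in that order, -0.078, -0.068, -0.062, -0.093, -0.079, -0.068, -0.064, -0.036 and -0.030. At 1500 over 200 µM the members' median was 0.19 with the replicate block, 0.18 with no filter, 0.092 at 50 counts and 0.12 to 0.27 with 1 library left out. Over all guides it was then 0.049, 0.0060, 0.0023 and -0.012 to 0.046. With guides at 0 in 1 group set at their bound, the 3 medians were 0.10, -0.16 and 0.14. This changed only 1, 4 and 3 of the 142 tested guides. Each stayed on its side of the median, so these medians could not move. The members' log2 level minus that of all guides was -1.25 at 0 µM over guides past the filter and -1.46 as a mean, -1.07 and -1.47 at 200 µM, and -0.97 and -1.31 at 1500 µM, where it was also -1.25 as log2(CPM + 5) and -1.24 over guides with a count. Depth limits the scarce guides: 38 of 180 fell below the count minimum, of which the fit with no filter tested all but the 9 with no count in any library.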
